A study of Rattus norvegicus with 18 samples.

Results

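The transcripts described here are those of 9 genes used to describe the glomerular podocyte: Synpo, Actn4, Podxl, Itga3, Wt1, Tcf21, Lmx1b, Nes and Des. They were chosen by symbol for the podocyte's cytoskeleton and surface, its identity factors and its stress filaments, and all 9 were found among 18420 gene rows. Messenger RNA of kidney cortex from Zucker diabetic fatty (ZDF) rats was sequenced in 3 groups of 6 libraries each. The RYGB group was diabetic, of genotype ZDF fa/fa, and had Roux-en-Y gastric bypass, surgery that makes a small stomach pouch and joins it to a lower loop of the small intestine. The disease group was also diabetic and ZDF fa/fa, and served as the diseased control without the operation. The healthy control group was lean, non-diabetic and ZDF fa/+. All groups are ZDF rats carrying at least 1 fa allele of the leptin receptor gene, and the labels used here give neither age nor sex. Nothing in them states that the libraries are from different rats, so a p-value measures only how these libraries spread, which may be technical.

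Podocytes are the octopus-shaped cells that wrap the glomerular capillaries and close the filtration barrier with interlocking foot processes. The foot processes are held in shape by an actin skeleton, kept apart by a charged surface coat and anchored to the basement membrane by integrins, while a small set of transcription factors maintains the differentiated state. Podocytes under strain are known to take up intermediate filament proteins such as desmin, which in rat kidney is widely stained as a sign of podocyte injury. Desmin is also a normal filament of mesangial cells and smooth muscle, both present in cortex.

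The RYGB libraries held 12470525 to 42713246 reads in genes, the disease libraries 8157977 to 37142922 and the healthy control libraries 8116638 to 34169198. Values are normalised reads, that is read counts divided by 1 size factor per library. Fold changes are log2 values from limma on log2(value + 1), given ± SE, and a gene was called at a Benjamini-Hochberg adjusted p below 0.05 over 13988 tested genes. All 9 transcripts passed the filter on low values. The cortex label fitted the markers: the podocyte transcript Nphs1 lay between 2353 and 5846 and the proximal tubule transcript Slc34a1 between 40160 and 122400 in the 18 libraries. Healthy control replicate 1 stood apart. It was the highest healthy control library in all 9 transcripts and in Nphs1, Ptpro and Kirrel1, and it had the largest share of counted reads outside annotated genes (43.17%, the others from 27.62 to 39.7%). Results are therefore also given without it where it matters. In bulk tissue, fewer podocytes and less RNA per podocyte cannot be told apart.

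Desmin and nestin were the members whose levels differed between groups, so the sequence around their starts is shown first. The windows run from 250 bases before to 50 bases after the annotated start, 5′ to 3′ on the gene's strand, as RefSeq gives them on the GRCr8 assembly. That assembly is not the one the reads were counted on, so the windows are shown as sequence context only. Des lies on the plus strand at chr9:84299376-84299675 and Nes on the plus strand at chr2:175736338-175736637. Capitals mark matches to GNGGGNG on either strand, a loose form of the GC-rich core bound by zinc finger factors of the WT1 and EGR families, with overlapping matches merged.
Des: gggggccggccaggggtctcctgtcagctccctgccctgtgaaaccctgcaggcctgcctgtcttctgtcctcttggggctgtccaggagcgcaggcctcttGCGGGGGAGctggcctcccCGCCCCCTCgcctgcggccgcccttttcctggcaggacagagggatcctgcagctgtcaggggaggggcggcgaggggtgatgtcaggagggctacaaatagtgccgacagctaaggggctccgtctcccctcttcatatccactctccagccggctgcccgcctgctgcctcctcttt
Nes: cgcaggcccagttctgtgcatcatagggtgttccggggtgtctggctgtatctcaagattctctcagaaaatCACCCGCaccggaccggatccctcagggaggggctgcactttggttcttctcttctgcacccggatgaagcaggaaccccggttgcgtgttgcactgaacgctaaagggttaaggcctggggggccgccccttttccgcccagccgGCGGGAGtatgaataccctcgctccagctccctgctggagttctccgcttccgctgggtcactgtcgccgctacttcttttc

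The Des window held 4 such matches, at -148, -146, -129 and -127 from the start, and the Nes window 2, at -178 and -32. Of the 8 members with a RefSeq promoter entry, 6 had at least 1 match, as did 62.3% of the 27457 promoters of the same length. The GC box GGGCGG, which can overlap the first motif and was also searched on both strands, occurred in 6 of the 8 and in 34.9% of all promoters. The E-box CANNTG, the kind of site bound by basic helix-loop-helix factors such as Tcf21, occurred in 4 of the 8 and in 71.6% of all promoters. TAATTA, an AT-rich core read by LIM homeodomain factors such as Lmx1b, occurred in 0 of the 8 and in 5.35% of all promoters. The CArG box of serum response factor, also searched on both strands, occurred in 0 of the 8 and in 1.64% of all promoters. GC content was 67.7% in the Des window and 60% in the Nes window, against a median of 52.3% over all promoters. Such matches describe letters in these windows and not binding.

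The disease and healthy control groups were compared first. They differ at once in fa genotype, leanness and diabetes, and the parts of these cannot be told apart. Desmin was higher in the disease group, and no other member passed the test. Des had 792.3, 708.5, 873.6, 603.6, 926.5 and 673.8 normalised reads in disease replicates 1 to 6. It had 540.1, 391.2, 353.3, 407.2, 448 and 379.2 in healthy control replicates 1 to 6. Every disease library lay above every healthy control library, and the closest approach was disease replicate 4 to healthy control replicate 1.

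The mean of Des was 763 ± 123 in disease and 419.8 ± 66.8 in healthy control (SD, n = 6 each). The log2 fold change was 0.86 ± 0.13 (95% interval 0.59 to 1.13, 1.81-fold, limma adjusted p = 0.00121). Of the 9 members 1 was called, against 1.61% of all tested genes, and its groups did not overlap, which held for 1.24% of all tested genes. The call stood in all 29 alternatives run on this scale, with limma, edgeR or DESeq2 adjusted p between 3.37e-07 and 0.00925. The fold change was 0.93 without healthy control replicate 1. On another scale, the planned fit of levels relative to podocyte transcripts did not call Des. The median fold change of the 9 members was 0.023, and that of all tested genes was 0.0016.

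The comparison of RYGB with disease set operated against unoperated diabetic rats. Both filament transcripts fell, nestin at the edge of the threshold. Des had 394.6, 541.9, 379.2, 463.2, 387.7 and 503 normalised reads in RYGB replicates 1 to 6, all below the lowest disease library at 603.6. Its mean was 444.9 ± 68.2 in RYGB and 763 ± 123 in disease (SD, n = 6 each), a log2 fold change of -0.77 ± 0.13 (95% interval -1.05 to -0.50, 0.584-fold, limma adjusted p = 0.00226). The call of Des stood in all 28 alternatives run on this scale, with adjusted p between 4.58e-06 and 0.0107. The planned fit relative to podocyte transcripts did not call it.

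Nestin, an intermediate filament of podocytes and of growing endothelial and neural progenitor cells, had 172, 453.3, 344.2, 266.6, 185.4 and 263.5 normalised reads in RYGB replicates 1 to 6. It had 747.4, 417.4, 437.6, 479.9, 467.1 and 375.1 in disease replicates 1 to 6. The groups overlapped through RYGB replicate 2, while the other 5 RYGB libraries lay below every disease library. The log2 fold change was -0.84 ± 0.23 (95% interval -1.32 to -0.35, 0.56-fold, limma adjusted p = 0.049).

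The call of Nes was at the edge of the threshold and was lost in 20 of 28 alternatives, while its direction stayed in all of them. It was lost with edgeR (adjusted p = 0.0698) and kept with DESeq2 (0.0236). Leaving out any 1 disease library ended it (limma adjusted p from 0.052 without replicate 3 to 0.128 without replicate 1, the library with 747.4). So did leaving out RYGB replicate 1 (0.124), 4 (0.0923), 5 (0.112) or 6 (0.0847), or healthy control replicate 2 (0.0582), 3 (0.056), 5 (0.0591) or 6 (0.0563), which share the estimate of the spread. The 2 called members of 9 compare with 3.95% of all tested genes called in either direction, and 2.60% of all tested genes had groups that did not overlap, among the members Des. The median fold change of the 9 members was -0.14, and that of all tested genes was -0.00087. Proximal tubule markers moved beside them, not all in 1 direction. In RYGB against disease 8 of 11 had positive fold changes (median 0.70), and Miox was called (0.95 ± 0.23, limma adjusted p = 0.0280). Gatm (-0.97 ± 0.39, limma adjusted p = 0.167), Slc5a12 (-0.42 ± 0.40) and Slc5a2 (-0.072 ± 0.23) had negative ones. An unadjusted limma p under 0.05 was found for 7, Gatm among them, beside 20.7% of all tested genes. The call of Miox was lost without disease replicate 1, 2 or 6 or RYGB replicate 4, 5 or 6 (0.0563 to 0.0728). The summed level of the 11 was 279900 to 411700 in RYGB, 187100 to 364700 in disease and 262900 to 495800 in healthy control. Their part in the fall of Des and Nes was not tested.

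The comparison of RYGB with healthy control asked how operated diabetic rats stood against lean ones. Of the 9 members 0 were called by limma, edgeR or DESeq2, against 4.44% of all tested genes called by limma, and 2 had an unadjusted limma p under 0.05, which 26.2% of all tested genes also had. These were Nes, at 280.9 ± 105 in RYGB and 397.3 ± 136 in healthy control, and Podxl, at 7049 ± 955 in RYGB and a mean of 9223 in healthy control (SD, n = 6 each). Their log2 fold changes were -0.52 (95% interval -1.01 to -0.031, limma adjusted p = 0.169) and -0.36 (-0.71 to -0.011, adjusted p = 0.179). Without healthy control replicate 1 they shrank to -0.37 (adjusted p = 0.385) and -0.24 (0.414). Des differed by 0.084 ± 0.13, and the interval from -0.19 to 0.36 excludes the 0.86 found for disease against healthy control. The median fold change of the 9 members was -0.11, and that of all tested genes was -0.013.

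The order of the Des levels was thus disease, RYGB, healthy control, and RYGB and healthy control overlapped. The order of the Nes levels was disease (487.4 ± 133), healthy control, RYGB, and both neighbouring pairs overlapped. Nes in disease against healthy control gave 0.32 ± 0.23 (95% interval -0.17 to 0.81, limma adjusted p = 0.66).

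**Figure D1:**
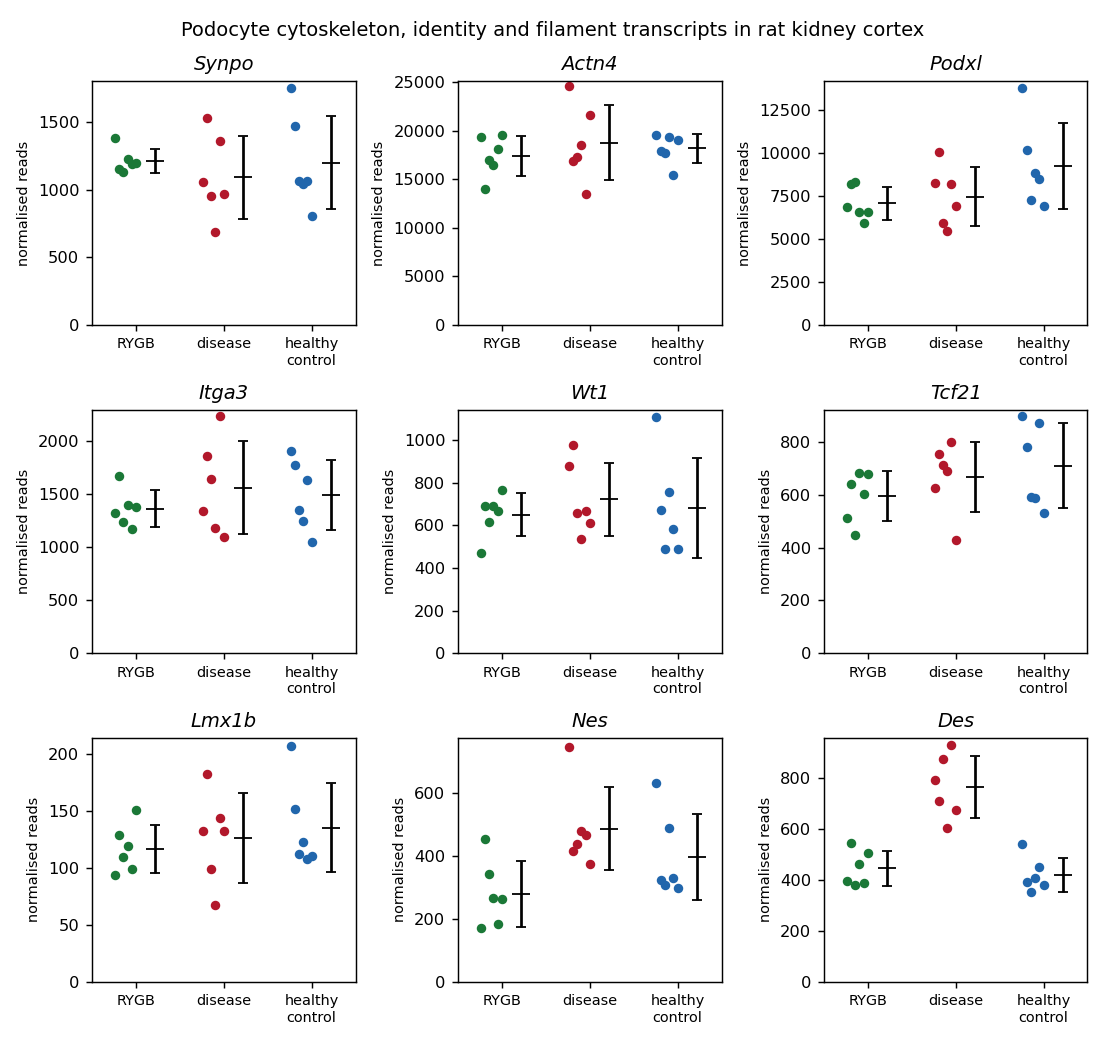
Normalised reads of the 9 transcripts (vertical axes, each from 0) in RYGB, disease and healthy control. Each point is a library, and the bars give the mean and SD of 6 libraries. In Des the 6 disease libraries lie between 603.6 and 926.5, above all RYGB and healthy control libraries, which reach 541.9 and 540.1. In the other panels the groups overlap.

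The actin skeleton transcripts showed no called change in whole cortex. Synaptopodin (Synpo), an actin-associated protein of foot processes, ranged from 1134 over a median of 1192 to 1380 in RYGB, from 685.1 over 1010 to 1533 in disease and from 804.2 over 1064 to 1750 in healthy control. The RYGB libraries lay close together inside the span of both other groups, with an SD of 87.8 in RYGB against 307 in disease and 345 in healthy control. That difference in spread was not tested. Its log2 fold change was 0.20 ± 0.18 for RYGB against disease (95% interval -0.18 to 0.57, limma adjusted p = 0.552), which does not reach a doubling or a halving.

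Alpha-actinin-4 (Actn4) crosslinks actin filaments, and mutations of its human counterpart cause inherited glomerulosclerosis. It ranged from 14010 over a median of 17540 to 19600 in RYGB, from 13520 over 17940 to 24580 in disease and from 15490 over 18520 to 19530 in healthy control. Its intervals were narrow: -0.37 to 0.19 for RYGB against disease, -0.26 to 0.30 for disease against healthy control and -0.34 to 0.21 for RYGB against healthy control. The muscle alpha-actinins were at the edge of detection, with at most 12.46 normalised reads of Actn2 and 4.906 of Actn3 in any library, and did not pass the filter. Actn1 was not analysed here.

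At the cell surface, podocalyxin (Podxl), the charged sialomucin that coats the foot processes, ranged from 5923 over a median of 6704 to 8289 in RYGB, from 5465 over 7542 to 10020 in disease and from 6891 over 8639 to 13740 in healthy control. Its log2 fold change was -0.30 ± 0.17 for disease against healthy control (95% interval -0.65 to 0.048, limma adjusted p = 0.535) and -0.059 ± 0.17 for RYGB against disease (-0.41 to 0.29, adjusted p = 0.871). Without healthy control replicate 1, at 13740, the first value was -0.18. Its relative Podxl2 averaged 104.4 in RYGB, 108.8 in disease and 109.6 in healthy control. Integrin alpha-3 (Itga3), which with integrin beta-1 holds podocytes to laminin in the basement membrane, ranged from 1175 over a median of 1347 to 1668 in RYGB, from 1100 over 1495 to 2238 in disease and from 1052 over 1493 to 1909 in healthy control. Its log2 fold change was -0.16 ± 0.17 for RYGB against disease and 0.048 ± 0.17 for disease against healthy control, with limma adjusted p of 0.617 and 0.952. Its partner Itgb1 gave -0.20 ± 0.13 (adjusted p = 0.386) and -0.076 ± 0.13 (0.881) in the same comparisons.

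The 3 identity factors were not called in any comparison. Wt1, the zinc finger factor that drives many podocyte genes, ranged from 468.5 over a median of 679.3 to 765.3 in RYGB, from 536.1 over 663.3 to 978.9 in disease and from 487.5 over 626.3 to 1111 in healthy control. Tcf21, a basic helix-loop-helix factor of podocytes and stromal cells, ranged from 449.2 over 622.6 to 682.6 in RYGB, from 427.7 over 701.3 to 801.6 in disease and from 529.5 over 687.1 to 899.4 in healthy control. Lmx1b, a LIM homeodomain factor whose human counterpart is mutated in nail-patella syndrome, ranged from 93.7 over 114.1 to 150.9 in RYGB, from 67.46 over 132.2 to 182.3 in disease and from 107.6 over 117.6 to 207.1 in healthy control. The groups overlapped broadly for each of them.

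For RYGB against disease the log2 fold change was -0.14 for Wt1, -0.16 for Tcf21 and -0.063 for Lmx1b (limma adjusted p = 0.714, 0.613 and 0.892). The disease libraries differed from healthy control by 0.11 for Wt1, -0.085 for Tcf21 and -0.13 for Lmx1b (limma adjusted p from 0.878 to 0.899). The widest of these 6 intervals were those of Lmx1b, from -0.51 to 0.38 in RYGB against disease and from -0.57 to 0.32 in disease against healthy control. Of 14 other tested podocyte transcription factors 0 were called by limma, edgeR or DESeq2 in any comparison, with 3 at an unadjusted limma p under 0.05 for RYGB against disease, 1 for disease against healthy control and 2 for RYGB against healthy control. The shares of all tested genes with an unadjusted p under 0.05 were 20.7, 11.1 and 26.2% in the same order. The medians of the 14 factors were 0.23, -0.18 and 0.12.

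**Figure D2:**
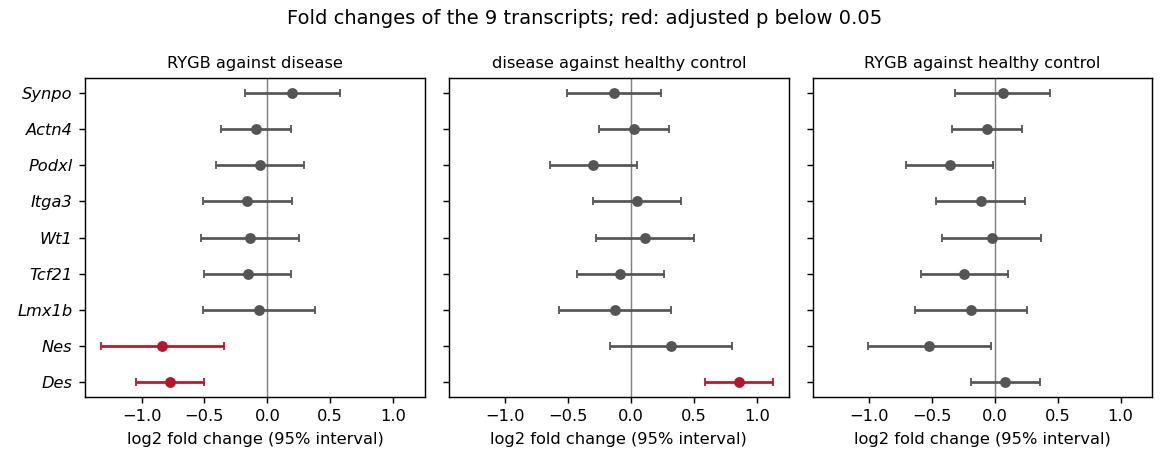
Log2 fold change with its 95% interval (horizontal axes) of the 9 transcripts in the 3 comparisons, from limma on all 18 libraries. Red marks an adjusted p below 0.05: Des and Nes at -0.77 and -0.84 in RYGB against disease, and Des at 0.86 in disease against healthy control. All other intervals but those of Podxl and Nes in RYGB against healthy control include 0.

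The neighbours of the members in the same structures were read from lists of podocyte genes. Of 9 tested slit diaphragm genes 0 were called by limma, edgeR or DESeq2 in any comparison, with 2, 1 and 3 at an unadjusted limma p under 0.05 in RYGB against disease, disease against healthy control and RYGB against healthy control. All such counts are to be read against the 20.7, 11.1 and 26.2% of all tested genes with such a p in these comparisons. The median fold changes of the slit diaphragm genes were -0.18, -0.21 and -0.34 in that order. Of 20 other tested podocyte transcripts limma called 0, 1 and 1, beside 3.95, 1.61 and 4.44% of all tested genes. The 1 was Cdkn1a both times. edgeR called 0, 1 and 3 of the 20 and DESeq2 1, 2 and 3. At an unadjusted limma p under 0.05 there were 4, 7 and 9, and the medians were -0.034, -0.18 and -0.12.

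Of 21 tested actin regulators, which include Ezr, Rhoa, Cdc42 and Inf2, 0 were called by limma and 0 by edgeR in the 3 comparisons, and DESeq2 called 1 in each. At an unadjusted limma p under 0.05 there were 5 for RYGB against disease, 2 for disease against healthy control and 5 for RYGB against healthy control, beside 20.7, 11.1 and 26.2% of all tested genes. The highest-valued of them, ezrin Ezr, which links podocalyxin to actin, averaged 21380 in RYGB, 23210 in disease and 20740 in healthy control. Of 11 tested genes of synaptopodin turnover 0 were called by any of the 3 tools, with 0, 1 and 2 at an unadjusted limma p under 0.05 in the same order of comparisons. The cathepsin L gene Ctsl, a protease known to cleave synaptopodin, averaged 33910 in RYGB, 45850 in disease and 49970 in healthy control (RYGB against disease -0.42 ± 0.21, limma adjusted p = 0.26).

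Among 21 tested integrin chains and adhesion partners limma called 0 in each comparison, with 2 at an unadjusted p under 0.05 for RYGB against disease, 3 for disease against healthy control and 9 for RYGB against healthy control. Of all tested genes 26.2% had such a p where these 9 were found. edgeR called 1, 0 and 1 of them and DESeq2 2, 0 and 2. Among 5 tested laminin-521 and collagen IV genes limma called 0, while edgeR called 2 and DESeq2 3 in RYGB against healthy control and 0 in the other comparisons. Unadjusted limma p under 0.05 were found for 0, 2 and 3 of these 5. Lamb2, the laminin beta-2 chain of the glomerular basement membrane, averaged 4610 in RYGB, 4046 in disease and 4016 in healthy control. The collagen IV chains of the same membrane had lower means in both diabetic groups, namely Col4a3 with 814.9 in RYGB, 910.5 in disease and 1449 in healthy control (-0.75 ± 0.22 for RYGB against healthy control, limma adjusted p = 0.0568) and Col4a4 with 738.3, 770.6 and 1259 in the same groups (-0.69 ± 0.22, 0.0760). The 6 tested genes of the CD34 family and the ezrin linkers gave 0 calls by limma and edgeR, and 1 by DESeq2 in RYGB against healthy control, with 0, 1 and 1 at an unadjusted limma p under 0.05.

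Other intermediate filaments moved beside desmin, not all in its direction. Of 14 tested non-member genes of the filament list, Vim and Krt8 were higher and Krt19 and Nefm lower in disease against healthy control. These 4 limma calls stand beside 1.61% of all tested genes, and edgeR called 2 of the 14 and DESeq2 3. Unadjusted limma p under 0.05 were found for 5, beside 11.1% of all tested genes. Limma also called 2 in RYGB against disease (3.95% of all tested genes) and 2 in RYGB against healthy control (4.44%). The 14 include Plec, Cryab and Hspb1, which are not filament genes themselves. Vimentin (Vim), a filament of mesenchymal cells and of podocytes, had 1918, 2894, 2453, 2625, 2220 and 2540 normalised reads in RYGB replicates 1 to 6. In disease it had 2808, 4675, 4158, 3589, 5093 and 3113, and in healthy control 2807, 2513, 2074, 2880, 2719 and 2225. Disease replicate 1 alone overlapped the other groups.

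The log2 fold change of Vim was -0.66 ± 0.14 for RYGB against disease (limma adjusted p = 0.0129, called in all 28 alternatives) and 0.60 ± 0.14 for disease against healthy control (adjusted p = 0.0321). The second call was lost in 10 of 29 alternatives, among them the fit with the replicate number as a block on both groups alone (0.0539). It was also lost without disease replicate 2 (0.0836), 3 (0.0821), 4 (0.0562) or 5 (0.0665), or healthy control replicate 2 (0.0683), 3 (0.099) or 6 (0.0915).

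Keratin 19 (Krt19), a filament of simple epithelia, went the other way. It averaged 169.3 ± 23.1 in RYGB, 82.46 ± 25.2 in disease and 151.5 ± 47.3 in healthy control (SD, n = 6 each). All 6 RYGB libraries lay above all 6 disease libraries, and the log2 fold change of 1.08 ± 0.21 (limma adjusted p = 0.00783) was called in all 28 alternatives. In disease against healthy control it was -0.87 ± 0.21 (adjusted p = 0.0415), lost in 16 of 29 alternatives, with a highest adjusted p of 0.125 without healthy control replicate 6. Leaving out replicate 1 or 5 of healthy control, 1 of disease replicates 1 to 4 or any RYGB library but replicate 2 also ended it (adjusted p 0.0501 to 0.103).

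Keratin 8 (Krt8) averaged 6857 ± 545 in RYGB, 7043 in disease and 4080 in healthy control, so that it was high in both diabetic groups. Its log2 fold change was 0.82 ± 0.20 for disease against healthy control (limma adjusted p = 0.0477, lost in 20 of 29 alternatives) and 0.83 ± 0.20 for RYGB against healthy control (0.0301, lost in 8 of 28). The first was lost without any healthy control library but replicate 4, any disease library but replicates 2 and 5 or any RYGB library (0.053 to 0.132). Replicates 1, 2, 3 and 5 of healthy control and 1, 4, 5 and 6 of RYGB each ended the second when left out (0.0548 to 0.0869). Between RYGB and disease Krt8 differed by 0.010 (adjusted p = 0.982).

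The medium neurofilament Nefm, a filament of neurons, averaged 312.5 ± 53 in RYGB, 428.7 ± 323 in disease and 829.5 ± 196 in healthy control (SD, n = 6 each). It fell by 1.39 on the log2 scale in RYGB against healthy control (limma adjusted p = 0.0124, called in all 28 alternatives). It fell by 1.18 in disease against healthy control (adjusted p = 0.0476, lost in 20 of 29 alternatives, with edgeR 0.131 and DESeq2 0.0659). Leaving out any healthy control library, any disease library but replicates 1 and 6 or any RYGB library but replicate 2 ended that call (0.0507 to 0.137). The 14 genes of the filament list had a median fold change of 0.0032 in RYGB against disease, 0.12 in disease against healthy control and 0.14 in RYGB against healthy control. Synemin (Synm), a filament partner of desmin and vimentin, was not called in any comparison, with means of 262.8 ± 45.1 in RYGB, 312.7 ± 97.6 in disease and 387.9 ± 66.7 in healthy control.

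**Figure D3:**
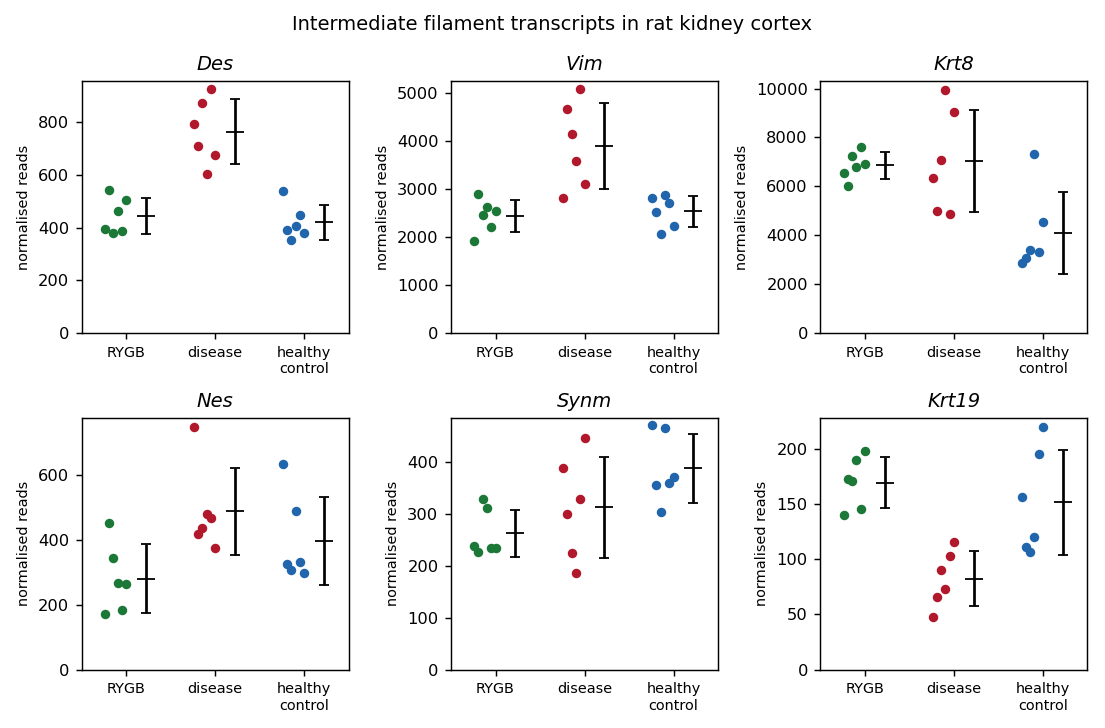
Normalised reads of 6 intermediate filament transcripts (vertical axes, each from 0) in RYGB, disease and healthy control. Each point is a library, and the bars give the mean and SD of 6 libraries. Des and Vim are highest in disease, Krt19 is lowest there with all libraries at or below 115.4, Krt8 is lowest in healthy control, and Synm overlaps between the groups.

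Markers of the other desmin-bearing cells were read beside Des. Of 16 tested mesangial, pericyte and smooth muscle markers 0 were called by limma, edgeR or DESeq2 in disease against healthy control, with 2 at an unadjusted limma p under 0.05. Pdgfra, a receptor gene of stromal cells, fell in RYGB against disease (-0.57 ± 0.14, limma adjusted p = 0.0298) and in RYGB against healthy control (-0.75 ± 0.14, 0.00581). The call of Pdgfra in RYGB against disease was lost without disease replicate 1 (0.0751), 2 (0.0736) or 6 (0.063), or RYGB replicate 1 (0.0512), 2 (0.0629), 5 (0.0561) or 6 (0.0653).

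The summed level of these markers was 13360 to 16210 in RYGB, 11630 to 16980 in disease and 14470 to 18400 in healthy control. The groups overlapped in this sum, while in Des every disease library lay above those of both other groups. Tagln averaged 2151 in RYGB, 1947 in disease and 1920 in healthy control, and Pdgfrb 1427 in RYGB, 1325 in disease and 1323 in healthy control. Of the 16 markers 4, named here after their values were seen, had fold changes with the signs of Des in both comparisons, and none of them was called. The smooth muscle gene Cnn1 averaged 41.42 in RYGB, 66.24 in disease and 48.64 in healthy control, with a fold change of -0.60 ± 0.26 in RYGB against disease (limma adjusted p = 0.192) and 0.40 ± 0.26 in disease against healthy control (0.619). Thy1, a mesangial surface antigen in the rat, averaged 238 in RYGB, 327.3 in disease and 283.2 in healthy control (-0.45 ± 0.19 and 0.22 ± 0.19, adjusted p = 0.196 and 0.729), and Actg2 and Mustn1 had means of at most 76.99. Acta2 was not analysed here.

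Of 11 measured skeletal and cardiac muscle markers, 4 passed the filter, and their sum over all 11 stayed at or below 70.22 in RYGB, 124.6 in disease and 139.8 in healthy control. Among the defining muscle markers, Acta1, Mylpf and Tnnt3 had reads in all 18 libraries, with at most 9.812, 29.51 and 49.06 normalised reads. Ckm was at 0 in disease replicate 6, and Myh6 in RYGB replicate 1 and disease replicate 5. Troponin T2 (Tnnt2), a thin filament protein of heart muscle, was the one muscle marker called. It averaged 8.611 ± 1.95 in RYGB, 27.54 ± 10.4 in disease and 6.468 ± 4.58 in healthy control, so that it was highest where Des was highest. Its means in RYGB and healthy control lay below 10, the value the filter asks of 6 libraries. It thus passed the filter through its disease libraries, so its calls are a description and not support for the pattern of Des. Its log2 fold change was -1.52 ± 0.35 for RYGB against disease (limma adjusted p = 0.0187, or 0.0521 without disease replicate 1, 0.0517 without RYGB replicate 1 and 0.0562 with quantile normalization) and 2.08 ± 0.35 for disease against healthy control (0.00287). The part of any of these cells in the level of Des was not tested.

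Slit diaphragm transcripts were read beside the members, because the share of glomeruli can differ between pieces of cortex. A planned fit of levels relative to podocyte transcripts called neither Des nor Nes nor any other member, and its values are not reported here. The sum of Nphs1, Ptpro and Kirrel1 was 5604 to 7357 in RYGB, 4852 to 8464 in disease and 5169 to 11780 in healthy control, so the groups overlapped and the healthy control libraries differed most among themselves. Nphs1, the nephrin gene, had a mean of 3022 in the RYGB libraries (2758 to 3337), 3122 in the disease libraries (2353 to 3722) and 3469 in the healthy control libraries (2508 to 5846). Its log2 fold change was -0.027 ± 0.17 for RYGB against disease (limma adjusted p = 0.945) and -0.11 ± 0.17 for disease against healthy control (0.867). Ptpro, a receptor phosphatase of podocytes, gave 0.028 ± 0.19 (adjusted p = 0.946) and -0.21 ± 0.19 (0.729) in the same comparisons, and Kirrel1, a partner of nephrin, -0.29 ± 0.25 (0.525) and -0.046 ± 0.25 (0.970).

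Pooled over the groups, Synpo, Podxl, Lmx1b and Wt1 varied together and Actn4 did not follow them. Not every group showed this alone. RYGB replicate 1 was the highest of its group in Synpo (1380) and the lowest in Wt1 (468.5) and Lmx1b (93.7). Disease replicate 2 was the highest and disease replicate 4 the lowest of their group in Synpo, Podxl, Lmx1b and Wt1. Healthy control replicate 1 was the highest of its group in each of them, and no r is given without it. Over 18 libraries, after subtracting the group mean of log2(value + 1), Pearson's r was 0.825 between Synpo and Podxl, 0.815 between Podxl and Lmx1b, 0.804 between Synpo and Lmx1b and 0.794 between Wt1 and Lmx1b. The lowest r among them was 0.647, Synpo with Wt1, below 0.769 for Synpo with Itga3 and 0.788 for Tcf21 with Itga3. For Actn4 r ran from -0.632 with Itga3 to 0.114 with Wt1. Des correlated with Itga3 at 0.711, with Tcf21 at 0.632, with Wt1 at 0.571, with Lmx1b at 0.567 and with Nes at 0.542. Synpo, Podxl, Lmx1b and Wt1 also ran with Nphs1 (0.736 to 0.885) and opposite to the proximal tubule markers Cubn, Slc34a1, Aqp1 and Slc5a2 (-0.875 to -0.516). For Actn4 these values were -0.006 with Nphs1 and 0.119 to 0.516 with the tubule markers, and for Des 0.644 and -0.689 to -0.393. The part of cortex composition in this covariation was not tested. The 36 pairs of members share the same libraries and sequencing depth, and the values are a description.

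Among 9414 genes with a mean of at least 100, those most like each member by the same measure over 18 libraries were as follows. Synpo varied most like Mgat4a (0.93), Nuak1 and Tia1, and Podxl most like Dcdc2 (0.958), Ugcg and Plce1 (0.944), a phospholipase gene of podocytes. Wt1 varied most like Tspan13 (0.935), Tm4sf1 and Nck2 (0.92), an adaptor that binds nephrin, and Lmx1b most like Cyp4v3 (0.924), Fyn (0.897), a kinase that phosphorylates nephrin, and Arhgap28. Tcf21 varied most like Tmem204 (0.894), Tmsb4x and Calhm2, and Itga3 much like Ntng2 (0.922) and Tor3a (0.911). Actn4 varied most like Rhoa (0.958), Ube2k and Fam103a1. Des varied most like Plec (0.856), the plectin gene whose product ties intermediate filaments together, Pde4c.1 and Sema3g (0.844), and Nes most like Serpinb6a (0.906), Hoxb7 and Mycbpap.

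**Figure D4:**
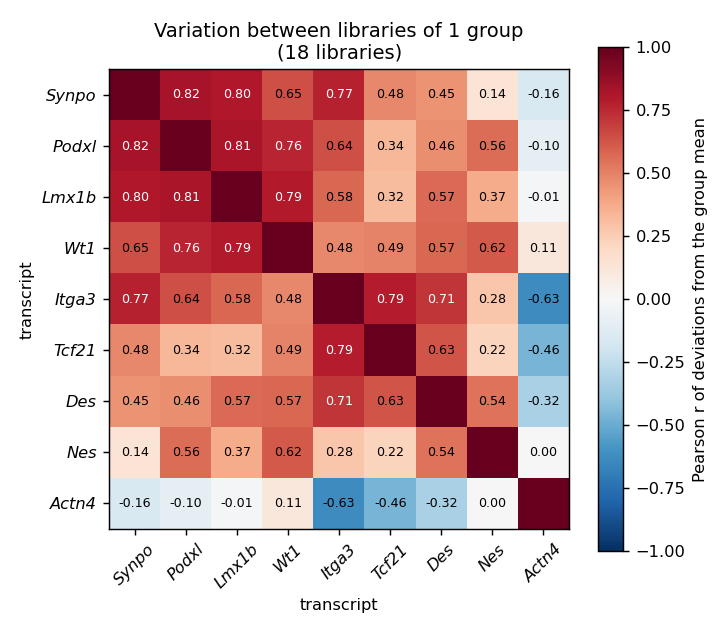
Pearson's r between the 9 transcripts (both axes) of their deviations from the group mean of log2(value + 1), over 18 libraries of RYGB, disease and healthy control. Red stands for positive and blue for negative values. Synpo, Podxl, Lmx1b and Wt1 form the reddest block, from 0.825 for Synpo and Podxl to 0.647 for Synpo and Wt1. Outside it Tcf21 and Itga3 reach 0.788, and the Actn4 row is pale or blue down to -0.632 with Itga3.

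Genes listed for podocyte injury outside the members moved in part. They were measured in whole cortex, and which cells gave their levels was not tested. Of 17 tested, Cdkn1a, the cell cycle inhibitor p21, rose and Mmp9, a matrix protease, fell in disease against healthy control, and the same pair was called in RYGB against healthy control. Limma called 2 of the 17 in each comparison. Of all tested genes 3.95% were called in RYGB against disease, 1.61% in disease against healthy control and 4.44% in RYGB against healthy control. In that order edgeR called 2, 3 and 2 of the 17 and DESeq2 2, 4 and 3. Unadjusted limma p under 0.05 were found for 8, 9 and 7, beside 20.7, 11.1 and 26.2% of all tested genes. Cdkn1a averaged 408.9 ± 190 in RYGB, 446.6 ± 76 in disease and 123.7 ± 38.1 in healthy control (SD, n = 6 each). It was thus high in both diabetic groups (1.62 ± 0.28 for RYGB against healthy control, limma adjusted p = 0.00322, and 1.89 ± 0.28 for disease against healthy control, 0.000976), and between RYGB and disease it differed by -0.27 (adjusted p = 0.617). Mmp9 averaged 59.44 in RYGB, 116.8 in disease and 347.6 in healthy control. Its fall in disease against healthy control (-1.55 ± 0.37, adjusted p = 0.0364) did not hold without any 1 healthy control library but replicate 4, or any 1 disease library but replicate 5 (0.0581 to 0.0888). In RYGB against disease Hes1, a target of Notch signalling, rose by 0.61 ± 0.17 (0.0466, lost in 17 of 28 alternatives) and Fn1, the fibronectin gene, fell by 0.56 ± 0.15 on the log2 scale (0.0397, lost in 13 of 28). Hes1 was not called when any RYGB library but replicate 3, any disease library but replicates 2 and 5, or any healthy control library but replicates 1, 4 and 6 was left out (0.0547 to 0.116). Fn1 was not called when any RYGB library but replicate 4 was left out, nor without replicate 2, 5 or 6 of disease or of healthy control (0.0503 to 0.0951). The median change of the 17 was -0.23 for RYGB against disease, -0.028 for disease against healthy control and 0.034 for RYGB against healthy control.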

How the data were processed

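Kidney cortex messenger RNA of 18 rat libraries was analysed, with groups and replicate numbers taken from the sample titles. Per the labels' protocols, RNA of frozen cortex was made into libraries with a stranded kit for polyadenylated RNA. Each deposited value is a signal, namely a gene's read count that the authors divided by the size factor of its library. The submitters' processing notes name the genome build Rnor 5.0 and the tools HTSeq 0.6.1p1, DESeq2, FastQC 0.11.2 and MultiQC 0.9. Aligner, annotation and the strand setting of the counting were not given in the sources used here, so overlapping genes are uncertain. Rows naming no gene were left out: reads outside genes (27.62 to 43.17%), aligned to several places (13.46 to 18.13%) or ambiguous (0.069 to 0.114%). At least 99.9946% of a library's values were whole multiples of 1 read within 0.01, and these recovered reads entered edgeR 4.0.16 and DESeq2 1.42.0 as alternatives. Libraries of a group all differed by more than sampling noise (chi-square per degree of freedom at least 22.53), so each counts once.

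Differences were tested with limma 3.58.1 under R 4.3.3, trend option on, using log2(value + 1) of the 13988 genes that reached 10 in 6 or more libraries. All 18 libraries entered 1 model with a mean per group (15 residual degrees of freedom), two-sided, with Benjamini-Hochberg adjustment within a comparison. Fold changes on this scale understate the change of low genes. The fits were tested on simulated data. Replicate numbers recur in the groups. Deviations of same-numbered libraries correlated at 0.131 to 0.325 between disease and healthy control (6 of 6 above 0.1). Only 3 of 6 disease libraries correlated best with their own number, and disease replicate 3 reached 0.389 with healthy control replicate 5. The labels give no pairing, and the data do not settle one. Between RYGB and disease same-numbered libraries correlated at -0.557 to 0.309 (1 of 6 above 0.1). Between RYGB and healthy control they did so at -0.31 to 0.014 (0 of 6). In neither do the numbers pair libraries. Alternatives were other pseudocounts, filters, scalings and tools, the replicate block, the compared groups alone and each library left out.

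The members, the 20 gene lists, the tests and the alternatives were chosen with earlier results of these data known. Of 261 listed symbols 232 were in the table, 3 of them under another symbol. The rule for named genes gave all members, up to 3 called genes of a list per comparison, the highest-valued gene of a list without a call, the relatives of members and the 3 genes most like each member. The text uses the lists of podocyte structures, filaments, injury and desmin-bearing cells, a narrowing made after the results were seen. Some genes are not reported here. They are left out of the lists, their counts and the genes most like a member, and the planned fit of levels relative to podocyte transcripts, which needs one of them and called neither Des nor Nes nor any other member, is left out with its alternatives. The other lists (parietal epithelium, endothelium, proximal tubule, neural, macrophage and immediate-early genes) are given in the closing section.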

Additional observations from a re-analysis of the deposited data

Results flagged for a closer look

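The 54 sets of 6 libraries formed by 18 genes in 3 groups were searched for a library far from the others of its group, and 5 were found, where chance gives about 1 in 20. In Nes, disease replicate 1 had 747.4 normalised reads and the next disease library 479.9. Without it the difference of RYGB from disease was -0.71 (limma adjusted p = 0.128).

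In healthy control replicate 1, Nphs1 had 5846 and the next library 3711, and Itgb1 had 16090 and the next library 12060. The same library was the highest healthy control library in all 9 members. In Actn2, RYGB replicate 2 had 10.51 and the next 4.571. In Actn3, disease replicate 4 had 1.405 and the other disease libraries 0, levels at which single reads decide the value.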

How the results depend on the processing

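For the 27 member results, 730 of 765 alternative values kept direction and side of the threshold, 20 lost the call (all of Nes in RYGB against disease) and 15 reversed, none of them called. The count of called members in RYGB against disease was 1 in place of 2 without a filter, with a minimum of 50, with TMM factors, with edgeR, with the compared groups fitted alone and with the replicate block, and 1 to 2 with a library left out. Called genes in disease against healthy control numbered 225, with 143 at a minimum of 50, 410 by DESeq2 and 124 to 310 with a library left out. In RYGB against disease there were 552, with 1098 by DESeq2 and 259 to 817 with a library left out. In RYGB against healthy control there were 621, with 1602 by DESeq2, 1442 with these groups fitted alone and 203 to 1501 with a library left out. The cause was not tested.

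With the replicate block, disease against healthy control kept Des as the called member (0.86, adjusted p = 0.00925, and 0.00444 with both groups alone, a fit added after seeing the data), with 158 and 252 called genes. In the other comparisons at most 1 of 6 same-numbered pairs correlated above 0.1. There the block gave 408 called genes in RYGB against disease and 496 in RYGB against healthy control, and ended the call of Nes (0.0771).

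With a library left out, reversals spanned 0: for disease against healthy control Actn4 (-0.060 to 0.11), Itga3 (-0.065 to 0.14), Lmx1b (-0.24 to 0.040) and Tcf21 (-0.16 to 0.038); for RYGB against disease Lmx1b (-0.23 to 0.055) and Podxl (-0.14 to 0.033). For RYGB against healthy control these were Synpo (-0.043 to 0.18) and Wt1 (-0.11 to 0.13). With 6 libraries a group, changes of the size of these intervals could not be resolved.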

Other observations

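Single markers of cells that border or accompany podocytes were called, not all of a list in 1 direction. Limma called 3.95% of all tested genes in RYGB against disease, 1.61% in disease against healthy control and 4.44% in RYGB against healthy control. Of 9 parietal epithelial markers in RYGB against healthy control, 2 were called higher, namely Pax2 (0.46 ± 0.12, limma adjusted p = 0.035, lost without any RYGB library but replicate 3 or without healthy control replicate 1, 3, 5 or 6, at 0.0582 to 0.0824) and Krt8 (given above), and 1 was called lower, and the median of the 9 was 0.18. The lower one, Prom1, averaged 984.4 in RYGB, 1330 in disease and 1812 in healthy control, and fell by 0.86 ± 0.11 on the log2 scale in RYGB against healthy control (limma adjusted p = 0.000497). Vwf, the von Willebrand factor gene of endothelium, averaged 86.55 in RYGB, 96.52 in disease and 223 in healthy control and fell by 1.29 ± 0.27 in RYGB against healthy control (adjusted p = 0.0116). In RYGB against disease 0 of 12 endothelial markers were called by limma, edgeR or DESeq2, and 0 had an unadjusted limma p under 0.05. The proximal tubule markers Kap (-3.52 ± 0.52, adjusted p = 0.000911) and Slc7a13 (-3.76 ± 0.64, 0.00335) fell in disease against healthy control.

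Of the macrophage markers, Lyz2 rose in RYGB against healthy control (0.56 ± 0.11, limma adjusted p = 0.00699) and in disease against healthy control (0.60 ± 0.11, 0.0044). Mrc1 averaged 60.34 in RYGB, 220.6 in disease and 132.9 in healthy control and fell by 1.75 ± 0.22 in RYGB against disease (adjusted p = 0.000334). The neural marker Ngfr fell in RYGB against healthy control (-1.99 ± 0.36, adjusted p = 0.00373). Junb, an immediate-early gene, averaged 2193 in RYGB, 713.6 in disease and 1171 in healthy control and rose by 1.48 ± 0.31 in RYGB against disease (adjusted p = 0.011). Apart from Pax2 and Krt8, the calls given here stood in all alternatives run for them. Other calls of these lists (Prom1, Miox and Jun in RYGB against disease, Vwf in disease against healthy control, and Pax2, Cdh5, Gatm and Kap in RYGB against healthy control) were each lost in 6 to 13 alternatives. The part of these cells and of tissue handling in the levels of the members was not tested.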
